A study of Homo sapiens with 6 samples.

Results

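Netrins and their receptors were followed in D283 tumorspheres after silencing of the transcription factor OTX2. D283 is an established cell line from a medulloblastoma, a childhood tumour of the cerebellum, and resembles both Group 3 and Group 4 disease. The genes were chosen by name, with earlier results of these data known. They were the netrin ligands NTN1 and NTN4, the receptors DCC and NEO1, and the UNC5 receptors UNC5A, UNC5B, UNC5C and UNC5D. These were 8 of 14884 genes named in the array annotation, and each was represented by 1 transcript cluster, the probe set that summarises a gene on the array. OTX2 KD tumorspheres (n = 3 arrays) had been given the siRNA s9931 and scramble tumorspheres (n = 3 arrays) a non-silencing siRNA. Both were grown on ultra-low-attachment plates in a medium with N2, B27, epidermal growth factor and basic fibroblast growth factor. The model was thus 1 cell line with 1 siRNA, in which effects of that siRNA on other transcripts cannot be told apart from those of OTX2. The arrays were Affymetrix Human Gene 2.0 ST, and each value is an expression level on a log2 scale.

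Netrins are secreted, laminin-like proteins that steer growing axons and migrating neurons. Signalling through DCC attracts an axon, whereas UNC5 receptors, alone or together with DCC, turn the response to repulsion. NEO1 (neogenin) is the closest relative of DCC and also binds repulsive guidance molecules. DCC and the UNC5 receptors are also known as dependence receptors, which can signal cell death when no netrin is bound. In the developing cerebellum, the tissue in which medulloblastoma arises, netrin receptors guide precursors that leave the rhombic lip, and loss of Unc5c in mice misplaces granule cells.

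OTX2 RNA was measured first, because it checks the labels. It was 9.62, 9.57 and 9.57 in the OTX2 KD arrays, against 10.56, 10.56 and 10.55 in the scramble arrays, so that the groups did not overlap. The log2 fold change was -0.97 ± 0.073 (SE; limma, adjusted p = 8.7e-05). Array medians lay between 3.67 and 3.71 in OTX2 KD and between 3.60 and 3.61 in scramble. Of 12 genes typical of Group 3 and Group 4 tumours, 9 were measured, and 0 of them lay below the median of every array. Their mean level, which includes OTX2, was 6.39 to 6.50 in the OTX2 KD arrays and 7.40 to 7.45 in the scramble arrays. Of the 9, 6 were called lower, OTX2 among them, 1 higher and 2 in neither direction. Of all named genes, 23.2% were called lower and 16.6% higher. EOMES averaged 3.06 in OTX2 KD and 3.41 in scramble, below the array medians. Precision is limited by the number of arrays.

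The comparison asked which netrin genes differed between OTX2 KD and scramble tumorspheres. RNA of both DCC-type receptors and of all 4 UNC5 receptors was higher in OTX2 KD, RNA of the ligand NTN4 was lower, and NTN1 did not pass the test. At an adjusted p below 0.05, 6 of the 8 members were higher, where 14.8% of all clusters and 16.6% of named genes were higher. By the same rule 1 member was lower, against 13.1% of all clusters and 23.2% of named genes. With a limit of at least 2-fold, 5 members were higher, against 3.12% of all clusters and 3.82% of named genes, and 0 were lower, against 3.62% and 6.89%. The groups did not overlap for 7 of the 8 members, against 42.0% of all clusters and 55.5% of named genes. The median log2 fold change was 1.30 over the members and 0.00 over all named genes. Because the members were chosen with earlier results known, these shares describe them and do not test the family. Over all clusters, 7932 were higher and 7034 lower, and after centring each array on its median 6027 were higher and 8611 lower, while the members' counts were the same under both scalings. In bulk RNA of a tumorsphere, fewer cells of a type and less RNA per cell cannot be told apart.

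**Figure D1:**
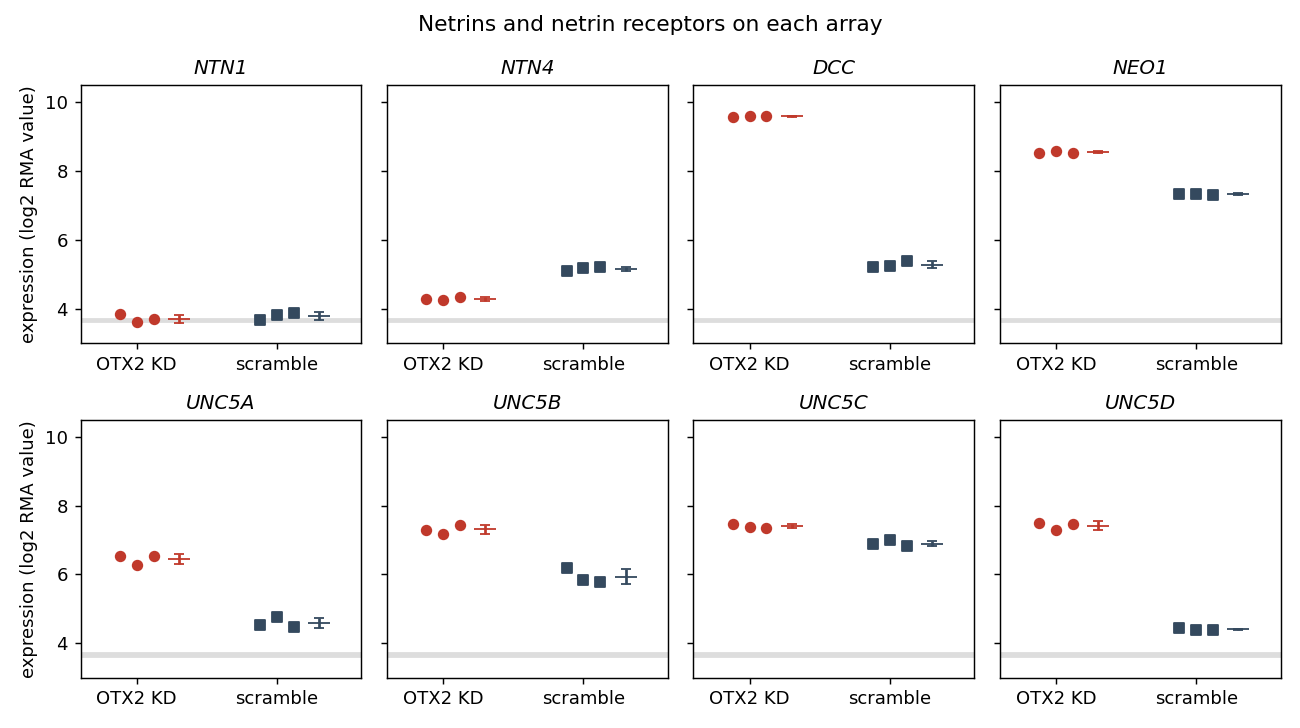
Expression of the 8 genes on each array (log2 RMA value, same axis in every panel), with OTX2 KD arrays as circles and scramble arrays as squares; the bar beside each group is the mean ± SD (n = 3) and the grey band spans the 6 array medians. DCC averaged 9.59 in OTX2 KD and 5.28 in scramble, and NTN1 stayed near the array medians in both groups.

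Promoters are shown for DCC, NEO1 and UNC5A, which rose, and for NTN4, which fell, since these genes moved in opposite directions under the same knockdown. RefSeq promoter sequences (build GRCh38.p14) run from 250 bases before to 50 bases after an annotated start. UNC5B and NTN1 had no such sequence, and UNC5D was not searched. Sequences of 5 of the 8 members were used, namely DCC, NEO1, UNC5A, UNC5C and NTN4, and NTN4 had 2 of them. Each was searched on both strands for the OTX2 motifs TAATCC and TAATCT, the E-boxes CAGCTG and CAGATG, the GC box GGGCGG and the TATA motif TATAAA. No matches shared letters in the windows shown, while GC boxes overlapped in the NTN4 window that is not shown. Capitals mark every match in the sequences below.
DCC promoter, chr18:52339947-52340246, plus strand: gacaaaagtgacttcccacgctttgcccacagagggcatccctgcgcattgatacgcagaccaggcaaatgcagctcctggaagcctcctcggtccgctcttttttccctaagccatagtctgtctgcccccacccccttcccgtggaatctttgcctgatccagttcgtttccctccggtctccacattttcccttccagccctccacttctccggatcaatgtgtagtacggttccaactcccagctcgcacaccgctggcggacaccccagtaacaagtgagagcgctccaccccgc
NEO1 promoter, chr15:73051652-73051951, plus strand: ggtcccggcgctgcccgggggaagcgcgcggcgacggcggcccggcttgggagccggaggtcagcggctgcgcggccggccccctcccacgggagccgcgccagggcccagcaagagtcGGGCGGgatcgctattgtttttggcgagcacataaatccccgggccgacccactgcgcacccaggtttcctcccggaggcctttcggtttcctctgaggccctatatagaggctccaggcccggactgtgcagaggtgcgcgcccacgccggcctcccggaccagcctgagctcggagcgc
UNC5A promoter, chr5:176810309-176810608, plus strand: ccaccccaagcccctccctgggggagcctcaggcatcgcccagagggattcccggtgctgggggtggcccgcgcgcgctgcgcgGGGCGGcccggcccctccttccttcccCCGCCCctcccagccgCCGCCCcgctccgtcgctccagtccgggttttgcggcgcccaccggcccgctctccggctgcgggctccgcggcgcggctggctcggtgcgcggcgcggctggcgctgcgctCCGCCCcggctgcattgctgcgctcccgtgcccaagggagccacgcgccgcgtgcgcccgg
NTN4 promoter, chr12:95791106-95791405, minus strand: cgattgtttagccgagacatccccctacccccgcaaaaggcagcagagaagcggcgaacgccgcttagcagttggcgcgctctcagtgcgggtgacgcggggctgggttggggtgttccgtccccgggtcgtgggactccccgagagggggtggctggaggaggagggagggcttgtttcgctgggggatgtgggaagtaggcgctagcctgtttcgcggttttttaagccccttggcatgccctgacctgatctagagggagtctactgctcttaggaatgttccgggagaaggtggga
No letters of TAATCC or TAATCT, in either direction, stood in any of the 6 promoter windows. Of 35116 promoters of the same length, 12.8% held at least 1 of these motifs (6.36% TAATCC and 7.17% TAATCT). The DCC window held 0 matches to any of the motifs searched and was 58.0% G and C, near the median of 58.7% over all promoters. The GC box, which 45.0% of all promoters held, occurred once in NEO1 and 4 times in UNC5A. It was found 0 times in UNC5C and in the NTN4 window shown, and 4 times in the other NTN4 window. Neither E-box was found in these windows, and neither was the TATA motif. Of all promoters, 17.9% held the E-box CAGCTG and 14.7% the E-box CAGATG, while 11.5% held the TATA motif. A match, or its absence in so short a window, is a description of the letters only.

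DCC, the receptor through which netrin attracts axons, had the largest rise of the family. Its level was 9.57, 9.60 and 9.60 in the OTX2 KD arrays, against 5.20, 5.24 and 5.39 in the scramble arrays. The OTX2 KD arrays differed among themselves by far less than the gap between the groups. The log2 fold change was 4.32 ± 0.084 (SE), or 19.9-fold (limma, adjusted p = 1.39e-06), with a 95% interval of 4.12 to 4.51. Among the 14884 named genes only 5 had a larger rise, DCC being number 6.

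NEO1 also rose, by a smaller step from a level that was already well above the array medians. It was 8.52, 8.57 and 8.53 in OTX2 KD, against 7.33, 7.34 and 7.30 in scramble. The arrays of each group lay close together, with SDs of 0.027 and 0.025. The log2 fold change was 1.22 ± 0.074 (SE), or 2.33-fold (adjusted p = 3.34e-05). The difference DCC minus NEO1, taken within each array, was 1.05 ± 0.019 in OTX2 KD and -2.05 ± 0.122 in scramble (SD over 3 arrays), so that the ratio of the 2 signals changed by 8.55-fold. In this and in 7 further pairs of members the groups did not overlap. The share over all gene pairs was not computed, while 55.5% of single named genes did not overlap. The exact permutation test, two-sided, gave p = 0.10 for each of the 8 pairs, which is the smallest p that 3 against 3 arrays allow, and 0.10 after adjustment over the pairs. No pair could therefore pass, and the differences between members are given as descriptions.

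The UNC5 receptors, which mediate repulsion from netrin, rose to unequal degrees. UNC5D changed most. It was 7.51, 7.28 and 7.47 in OTX2 KD, against 4.43, 4.39 and 4.38 in scramble. All OTX2 KD arrays lay far above the scramble arrays, and the log2 fold change was 3.02 ± 0.090 (SE), or 8.09-fold (adjusted p = 3.57e-06). This placed UNC5D at number 28 among the rises of named genes.

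UNC5A was 6.54, 6.29 and 6.55 in OTX2 KD, against 4.54, 4.76 and 4.48 in scramble. Its groups were separated by more than their spread, with a 3.65-fold rise (log2 fold change 1.87 ± 0.115, SE; adjusted p = 3.64e-05). UNC5B, which also serves as a repulsive receptor in blood vessels, was 7.29, 7.19 and 7.45 in OTX2 KD, against 6.18, 5.84 and 5.78 in scramble. It had the widest spread of the family in scramble (SD 0.213), where replicate 1 was the highest, and its rise was 2.60-fold (1.38 ± 0.130, SE; adjusted p = 0.000237). An antisense transcript annotated at the same locus, UNC5B-AS1, was 3.76 ± 0.240 in OTX2 KD and 3.84 ± 0.107 in scramble (SD over 3 arrays). Its groups overlapped, with a log2 fold change of -0.08 (adjusted p = 0.717). Both means lay near the array medians, where a lack of change cannot be read.

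UNC5C, the receptor whose loss disturbs the mouse cerebellum, changed least among the receptors. It was 7.47, 7.38 and 7.36 in OTX2 KD, against 6.87, 7.00 and 6.83 in scramble. These groups stood apart by a small margin, and the log2 fold change was 0.50 ± 0.085 (SE), or 1.42-fold (adjusted p = 0.00393). Within arrays, the difference UNC5C minus UNC5D was -0.02 ± 0.103 in OTX2 KD and 2.50 ± 0.092 in scramble (SD over 3 arrays). The smallest unequal change among the UNC5 pairs was that of UNC5A minus UNC5B, at 0.49 ± 0.170 (SE), and the largest was that of UNC5C minus UNC5D, at -2.52 ± 0.080 (SE).

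**Figure D2:**
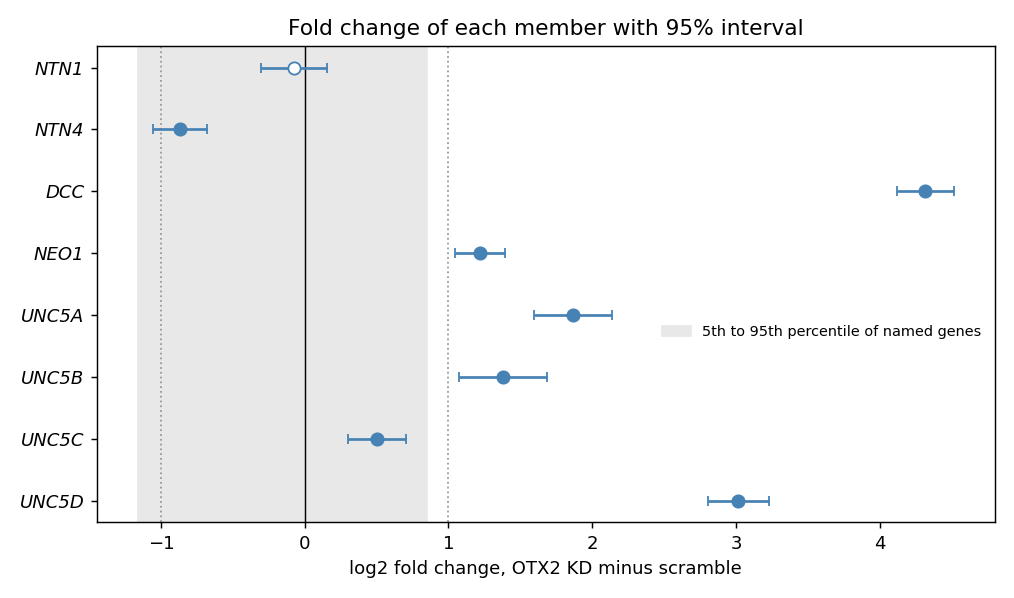
Log2 fold change (OTX2 KD minus scramble) of each gene with its 95% interval from limma; filled points had an adjusted p below 0.05, dotted lines mark 2-fold, and the grey band spans the 5th to 95th percentile of named genes. DCC (4.32) and UNC5D (3.02) lie furthest to the right and NTN4 (-0.87) is the filled point to the left of 0.

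Neither of the netrin ligands NTN1 and NTN4 was called higher with the receptors. NTN4, a netrin of basement membranes that binds laminins, was 4.27, 4.24 and 4.34 in OTX2 KD, against 5.08, 5.17 and 5.20 in scramble. Every OTX2 KD array was below every scramble array, and the log2 fold change was -0.87 ± 0.080 (SE), or 1.82-fold lower (adjusted p = 0.000217). NTN1, the classical ligand of DCC and UNC5 receptors, was 3.83, 3.60 and 3.69 in OTX2 KD, against 3.67, 3.80 and 3.88 in scramble. These values overlapped and lay near the array medians, where signal over background was not measured. The log2 fold change of NTN1 was -0.07 ± 0.099 (SE; adjusted p = 0.634), and the 95% interval ran from -0.31 to 0.16. The difference NTN1 minus NTN4 was -0.58 ± 0.119 in OTX2 KD and -1.37 ± 0.049 in scramble (SD over 3 arrays).

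Partners of the netrin receptors were described from 4 lists, of 95 genes in all, also chosen with earlier results of these data known. Of the 62 that were measured, 27 rose, 17 fell and 18 missed the threshold. The shares of 43.5% and 27.4% compare with 16.6% and 23.2% over named genes, and the median log2 fold change was 0.18. The other listed genes were not analysed here.

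Among other ligands and ligand cofactors, 3 of 10 measured genes rose and 2 fell (median log2 fold change 0.07). DRAXIN, a secreted repellent that binds DCC and netrin, was 8.06, 8.08 and 8.02 in OTX2 KD, against 6.04, 6.16 and 6.24 in scramble, a 3.75-fold rise (adjusted p = 1.02e-05). FLRT1 belongs to a family of membrane ligands of UNC5 receptors and rose 4.23-fold (adjusted p = 1.27e-05), with a mean of 5.80 in OTX2 KD and of 3.72 in scramble, where it lay close to the array medians, so that the size of its fold is uncertain. Its relative FLRT2 fell (-0.49 ± 0.096, SE; adjusted p = 0.00746), and FLRT3 stood at 0.21 on the log2 scale (adjusted p = 0.158). HJV (hemojuvelin), a neogenin ligand of the repulsive guidance molecule family, was 3.36-fold lower (adjusted p = 2.32e-05), although at 3.89 ± 0.130 (SD, n = 3) its OTX2 KD arrays lay near the array medians. Of the other netrin-like genes, NTNG2, a membrane-anchored netrin, rose 1.46-fold (adjusted p = 0.0119). NTN3, NTN5 and NTNG1 had log2 fold changes of 0.07, -0.14 and 0.07 and did not pass. With each array centred on its median, NTN3 and NTNG1 stood at -0.013 and -0.021. NTN5 and NTNG1 lay below the median of every array, where a lack of change cannot be read.

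Among other cell surface partners, 9 of 15 measured genes rose and 3 fell (median log2 fold change 0.58). ADGRL3, a latrophilin that forms complexes with FLRT proteins and UNC5 receptors, was 7.09, 7.02 and 7.03 in OTX2 KD, against 3.69, 3.56 and 3.64 in scramble. Its groups did not overlap, and the rise was 10.7-fold (adjusted p = 2.55e-06), but its scramble values lay at the array medians, so that the size of this fold is uncertain. LRRC4C, the netrin-G ligand, rose 3.70-fold, although it lay at 2.25 ± 0.232 in scramble (SD, n = 3), below every array median, and the size of its fold is uncertain too. LINGO1, a leucine-rich repeat protein of neurons, rose 2.15-fold (adjusted p = 7.26e-05). DSCAML1, a relative of the netrin receptor DSCAM, fell (-1.48 ± 0.091, SE; adjusted p = 3.57e-05), as did the proteoglycan SDC2 (-1.02) and the adenosine receptor ADORA2B (-0.60; adjusted p = 0.021). The call of ADORA2B was lost without scramble replicate 1 (adjusted p = 0.0611), OTX2 KD replicate 3 (0.0519) or scramble replicate 3 (0.0675). DSCAM itself stood at 0.13 on the log2 scale (adjusted p = 0.314), but it lay below the median of every array.

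Intracellular effectors moved in both directions, with 13 of 30 measured genes higher, 8 lower and 9 not past the test, and a median of 0.20. The largest rises were those of the microtubule proteins DCX (5.24-fold), DCLK1 (4.00-fold) and MAP1B (2.71-fold), which are also markers of young neurons. MYO10, a myosin known to carry DCC into filopodia, was 7.09, 7.07 and 7.10 in OTX2 KD, against 9.01, 9.11 and 9.09 in scramble. It was 3.96-fold lower, with no overlap of the groups (adjusted p = 6.31e-06). DOCK1, a RAC activator, and the SRC-family kinase YES1 were 2.15-fold and 2.04-fold lower. Genes of the dependence receptor death list were measured for 7 of 16 entries, of which 2 rose, 4 fell and 1 did not pass. FEM1B, a ubiquitin ligase adaptor, rose 1.77-fold (adjusted p = 0.000179) and DAPK2 1.36-fold (adjusted p = 0.0175). DAPK1, a kinase that acts in cell death downstream of UNC5B, fell (-0.62 ± 0.085, SE; adjusted p = 0.00138), as did PRKD1 (-0.63; adjusted p = 0.0207) and the phosphatase inhibitor CIP2A (-2.16; adjusted p = 9.14e-06). DAPK2 averaged 3.23 in scramble and PRKD1 3.00 in OTX2 KD, below every array median, so that the sizes of these folds are uncertain. Without scramble replicate 1 or OTX2 KD replicate 2, the calls of DAPK2 (adjusted p = 0.0539 and 0.0511) and PRKD1 (adjusted p = 0.0502 and 0.0657) were lost. Of the 4 fallers, PRKD1 among them, 2 were lost without either of these arrays and also without scramble replicate 3.

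**Figure D3:**
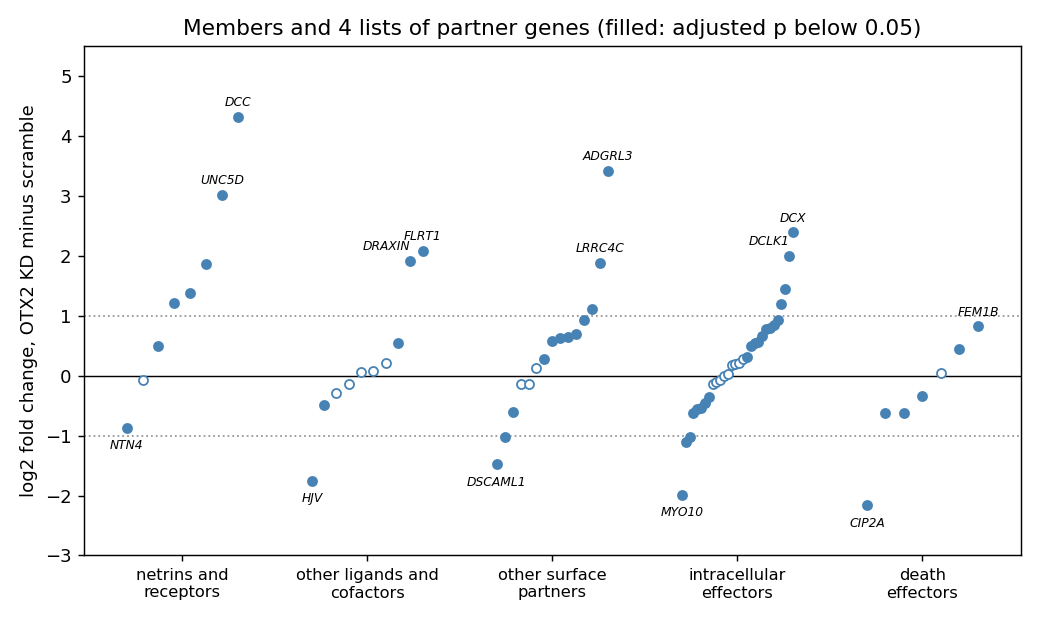
Log2 fold change (OTX2 KD minus scramble) of every measured gene among the netrins and their receptors and 4 lists of partner genes, ordered by value within each list; filled points had an adjusted p below 0.05 and dotted lines mark 2-fold. ADGRL3 (3.42) is the highest partner gene and CIP2A (-2.16) the lowest.

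The receptors rose on arrays on which markers of young neurons rose and markers of proliferation fell. Of 10 early neuron markers, 5 were measured and all 5 were higher, and their mean level per array was 9.21 to 9.31 in OTX2 KD and 5.89 to 6.05 in scramble. This list shares DCX with the intracellular effectors. Over all named genes, 16.6% were called higher and 23.2% lower. All 6 proliferation markers were lower, with mean levels of 5.91 to 6.15 in OTX2 KD and 8.48 to 8.51 in scramble. The part of these shifts in the netrin receptor values was not tested. UNC5B and NTN4 are also genes of blood vessels. Of 7 endothelial markers measured, 0 rose, 1 fell and 6 did not pass, and their mean level was 3.91 to 3.96 in OTX2 KD and 3.96 to 4.05 in scramble. Of these, 4 lay below the median of every array. Astrocyte markers (2 measured) had 0 called, and of 4 oligodendrocyte markers 1 rose and 0 fell. All samples were of 1 tumour cell line, so these marker counts could not bear on the source of UNC5B or NTN4 RNA.

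Genes with the profile most like that of each member were found by the root mean square distance between gene-centred values over the 6 arrays, among 14883 other named genes. For DCC they were NHLH1, a transcription factor of new neurons (distance 0.06 log2 units), MAP2, a dendritic microtubule protein (0.14), and NPTXR, a synaptic pentraxin receptor (0.18). For UNC5D they were CNTN3, a neuronal contactin (0.06), the ephrin EFNB2 (0.10) and C8orf89 (0.12). For UNC5A they were RASSF2 (0.05), the dynamin DNM3 (0.06) and the secretogranin SCG2 (0.09). For UNC5B they were RALGDS (0.08), the forebrain transcription factor FEZF2 (0.08) and PEA15 (0.09). For NEO1 they were the tubulin acetyltransferase ATAT1 (0.02), MEGF11 (0.02) and the interleukin receptor IL17RA (0.02). For UNC5C they were the kinase STK39 (0.02), the transcription factor KLF10 (0.03) and the dopamine receptor DRD3 (0.03). For NTN4, which fell, they were AOPEP (0.02), ATP13A3 (0.02) and UBE2MP1 (0.03). With 2 groups this distance reflects mainly the size of the fold change, and small folds have many near neighbours.

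The genes next to each member on its chromosome were set beside it, to show whether a change was shared along the chromosome. Neighbours were the nearest protein-coding genes on either side that had a named cluster, in the gene order of the RefSeq annotation (GRCh38.p14), and they were added after the data were seen. Of 16 neighbours, 3 were higher, 6 were lower and 7 did not pass, with a median log2 fold change of -0.22, where 16.6% of named genes were higher and 23.2% lower. DCC stood between MEX3C (-0.25; adjusted p = 0.0505) and MBD2 (0.33; adjusted p = 0.0151). Both lay near the threshold, and after median centring MEX3C had an adjusted p of 0.0146 and MBD2 of 0.0611, MBD2 missed the threshold without OTX2 KD replicate 1 (adjusted p = 0.051), and with the replicate block it had an adjusted p of 0.0563. NEO1 rose beside BBS4, a cilium gene that was 2.53-fold lower (adjusted p = 6.46e-05). UNC5D stood between DUSP26, which was 3.20-fold higher (adjusted p = 4.63e-05), and ZNF703, which was 1.81-fold lower (adjusted p = 0.00156). UNC5A had TSPAN17 beside it, which was 1.96-fold higher (adjusted p = 0.000234). UNC5B rose beside PCBD1, which was 1.88-fold lower (adjusted p = 0.000375), and UNC5C beside PDLIM5, which was 2.20-fold lower (adjusted p = 8.44e-05). NTN4 was the member whose neighbours on both sides were called in its own direction. USP44 (-0.99 ± 0.089, SE; adjusted p = 0.000194) and SNRPF (-0.88 ± 0.084, SE; adjusted p = 0.000248) were lower by nearly the amount of NTN4 (-0.87).

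**Figure D4:**
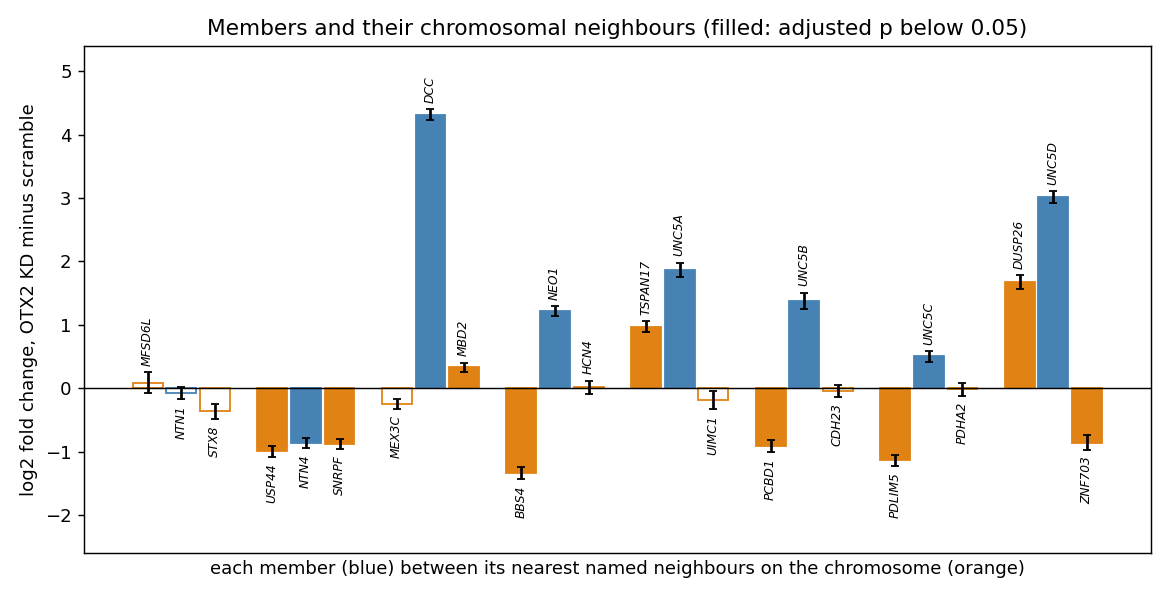
Log2 fold change (OTX2 KD minus scramble; bars from 0, error bars SE) of each member, in blue, and of its nearest named protein-coding neighbours on either side, in orange; filled bars had an adjusted p below 0.05. NTN4 lies between 2 neighbours with falls of similar size, whereas DCC (4.32) lies between MEX3C (-0.25) and MBD2 (0.33).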

How the data were processed

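Total RNA of D283 tumorspheres was run by the authors on Affymetrix Human Gene 2.0 ST arrays, 3 of OTX2 KD and 3 of scramble, which the study's methods call biological replicates. The deposited values were log2 expression values that the authors made with RMA in Affymetrix Expression Console. Scan dates are not given in the sources used here. Groups and replicate numbers came from the sample titles. Of 53617 transcript clusters, 16098 had 1 gene symbol in the platform annotation, 0 had several and 37519 had none.

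The groups were compared with limma's two-sided moderated test (version 3.58.1, R 4.3.3; 4 residual and 3.17 prior degrees of freedom), and p-values were adjusted by Benjamini-Hochberg over the 53617 clusters, none of which was filtered out. For each gene the brightest cluster was used. Changes were called at an adjusted p below 0.05. Arrays with the same replicate number did not deviate together (r of -0.06, -0.02 and 0.00 across clusters), so no pairing was used. The members and lists were chosen with earlier results of these data known. Named were the members, OTX2, the 3 largest called rises and falls of each partner list, and the 3 genes most like each called member; other genes were named after their values were seen. On simulated data with 200 of 53617 clusters changed, the fit recovered 12% of 1.41-fold, 60% of 2-fold, 94% of 4-fold and 100% of 8-fold changes, with 3 false calls. In the real data 14966 clusters were called. Recovery with so many changed clusters was not simulated, so these shares do not give the recovery in this comparison. Plots used matplotlib 3.10.9 (Python 3.11.15).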

Additional observations from a re-analysis of the deposited data

How the results depend on the processing

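Each of the 8 members kept its direction and its side of the threshold under all 12 alternative fits. Over these, the log2 fold change ranged from 4.23 to 4.37 for DCC, from 2.93 to 3.09 for UNC5D, from 1.78 to 1.95 for UNC5A, from 1.29 to 1.50 for UNC5B, from 1.13 to 1.25 for NEO1, from 0.41 to 0.55 for UNC5C (highest adjusted p = 0.0182), from -0.17 to -0.02 for NTN1 (lowest adjusted p = 0.302) and from -0.95 to -0.84 for NTN4. These fits were median centring, a repeated quantile normalization, brighter clusters only, clusters with 1 symbol only, trend and robust variance, the replicate number as a block, and each array left out. With the replicate block, 7 members and 12980 clusters were changed (6774 higher and 6206 lower), against 14966 without it, and without 1 array 12129 to 13128 clusters were. Same-numbered arrays share only a number.

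The count over all clusters depended on the threshold and on the clusters tested. With at least 2-fold change, 3613 clusters were changed (1672 higher and 1941 lower) at an adjusted p below 0.05 and 3661 (1702 and 1959) at an unadjusted p below 0.05. Among clusters with 1 symbol only, 7367 were changed, 3240 higher and 4127 lower. With the 2-fold limit 0 members were lower, because NTN4 changed by 1.82-fold. Averaging a gene's clusters was not run, since each member had 1. Signal over background was not measured, so folds of genes near the array medians, such as NTN1, have no stated floor. The uncalled NTN3 and NTNG1 changed sign, to -0.013 and -0.021 after median centring. NTNG1 was -0.020 after the repeated quantile normalization, and NTN3 ranged from -0.066 to 0.15 over the fits without 1 array.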
